A study of Mus musculus with 20 samples.

Results

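The miRNAs miR-138, miR-218 and miR-135 are small RNAs of nerve cells, each linked to synapses or to the signals that neurons receive. They were selected by name as every row whose stem is miR-138, miR-218, miR-135a or miR-135b, with either arm of the hairpin, and 5 of the 281 miRNAs of the deposited table met this rule. These were miR-138-5p, miR-138-1-3p, miR-138-2-3p, miR-218-5p and miR-135a-5p. The rule itself uses no measured value, but it was set with earlier results of these data known. The samples were right ventral hippocampi of naïve wildtype male C57BL/6JOlaHsd mice, 10 given cannabidiol (CBD, a non-intoxicating compound of the hemp plant) and 10 given vehicle. CBD was dosed at 200 mg/kg/day, and either agent was injected into the peritoneum 2 times a day for 5 days. No animal carried a disease model or an altered allele, and the labels give neither the age of the mice nor the make-up of the vehicle. The comparison asks whether CBD alters these miRNAs in undiseased animals.

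A miRNA is cut from a hairpin precursor, and either the 5p or the 3p arm may be kept and loaded into an Argonaute protein, where its seed, bases 2 to 8, pairs with target mRNAs and lowers their output. miR-138 is found in dendrites of rat hippocampal neurons, where it limits the size of dendritic spines by repressing Lypla1, an enzyme that removes palmitate from synaptic proteins. miR-218 represses the axon guidance receptor Dcc in mouse prefrontal neurons, and miR-135a represses the serotonin transporter and a serotonin receptor in mouse raphe neurons. The 3p arms of miR-138 are the arms that are usually discarded.

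The mature sequences are shown because the arms and copies that can be told apart depend on them. They are from RefSeq (GRCm38.p6), written 5′ to 3′ with the seed in capitals.
miR-138-5p: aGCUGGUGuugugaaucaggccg
miR-138-1-3p: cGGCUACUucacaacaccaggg
miR-138-2-3p: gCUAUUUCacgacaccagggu
miR-218-5p: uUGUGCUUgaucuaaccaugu
miR-135a-5p: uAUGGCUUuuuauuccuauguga
The 5 seeds all differ. Of the 281 miRNAs 247 were matched to a RefSeq mature sequence, and 0 of the other matched miRNAs shared a seed with any of the 5.

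Each of the 5p arms can come from 2 hairpins with the same mature sequence, so their reads cannot be assigned to a copy. Only miR-138 had measured 3p arms that differ between the copies. The miR-138 hairpins are given with the measured arms in capitals, Mir138-1 at chr9:122682876-122682974 and Mir138-2 at chr8:94324311-94324381, both on the plus strand.
Mir138-1: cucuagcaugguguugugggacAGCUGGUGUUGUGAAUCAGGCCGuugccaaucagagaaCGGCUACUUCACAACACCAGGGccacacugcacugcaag
Mir138-2: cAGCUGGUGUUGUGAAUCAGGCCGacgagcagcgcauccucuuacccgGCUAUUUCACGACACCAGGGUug
Laid over each other without gaps, the 3p arms overlap in 20 bases with 2 mismatches, C7U and A13G, where the base of miR-138-1-3p comes first and positions are counted from 1 at its 5′ end. The sources used here do not say how the authors' counting treated reads with mismatches, so the split between these 2 rows is uncertain to that extent.

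In the GENCODE vM21 annotation of the same build the miR-138 hairpins overlap exons of noncoding genes, Mir138-1 those of the pseudogene Gm47135 and Mir138-2 those of the lincRNA C78859. The miR-218 hairpins lie in introns of Slit2 (chromosome 5, 48223942 to 48224051) and Slit3 (chromosome 11, 35616816 to 35616925), on the strand of these genes, which encode ligands of axon guidance. The miR-135a hairpins lie on chromosome 9 at 106154124 to 106154213, in an intron of the noncoding D030055H07Rik and opposite an exon of Glyctk, and on chromosome 10 at 92072086 to 92072185, in an intron of the lincRNA Rmst.

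The listed library size was 242178 to 1245429 reads, and whole reads could be recovered from the deposited log2 values in all 20 libraries. The libraries belong to 4 numbered runs of 5, 6, 4 and 5 libraries, with 3, 3, 2 and 2 of them from CBD mice. The sources used here do not say what a run stands for. All 5 listed neuronal marker miRNAs were measured, and their summed level was 103244 to 258930 reads per 1000000 reads (RPM) across the libraries. Levels below are log2 RPM as deposited, relative to the other miRNA reads of the same library. RPM here is per 1000000 of an effective library size, which was 0.693 to 1.17 times the listed size. In this bulk tissue fewer cells of a type and less of a miRNA per cell cannot be told apart.

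miR-138-5p was among the miRNAs with the most reads in these libraries, and the other 4 rows lay far below it. It ranked 4 of 281 by mean level, with 59668 ± 19378 RPM (SD, n = 20), and the miR-138 rows together held 6.05% ± 2.22 of the reads in the table. Its mean log2 level of 15.79 lay 0.47 below that of let-7c-5p at rank 3 (SD of the difference 0.58, n = 20), and it was the higher of them in 4 of 20 libraries. It exceeded miR-30c-5p at rank 5 in 20 of 20 libraries. miR-218-5p ranked 75, with 1622 ± 642 RPM, and miR-135a-5p ranked 186, with 220 ± 148. Their neighbours in rank were higher in some libraries and lower in others. The 3p arms miR-138-1-3p and miR-138-2-3p ranked 244 and 248, with 101 ± 29.7 and 97.5 ± 27.4 RPM, and did not differ from each other beyond their spread. The order miR-138-5p above miR-218-5p above the other 3 held in 20 of 20 libraries, while miR-135a-5p exceeded each 3p arm in 15 of 20.

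The 5 miRNAs varied to unlike degrees between mice. The SD of the log2 level over 20 libraries was 0.96 for miR-135a-5p, rank 23 of 281, and 0.67 for miR-218-5p, against a median of 0.56 over all miRNAs. For miR-138-5p, miR-138-1-3p and miR-138-2-3p it was 0.46, 0.45 and 0.41. Counting error at the median read number accounts for an SD of 0.0074 for miR-138-5p, 0.047 for miR-218-5p, 0.14 for miR-135a-5p and 0.19 and 0.18 for the 3p arms. The lowest read numbers in any library were 8399, 175, 12, 22 and 12 in the same order, and these errors cover counting only.

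CBD and vehicle mice overlapped for all 5 miRNAs, and none of them passed the test. miR-135a-5p and miR-218-5p had the lower mean with CBD, and for the 3 miR-138 rows the group means differed by at most 0.15 on the log2 scale. In the limma test of CBD against vehicle 0% of all 281 miRNAs had an adjusted p under 0.05 and 7.83% (22 miRNAs) had an unadjusted p under 0.05, 5.34% being lower and 2.49% higher with CBD. Of the 5 miRNAs described here 0 were among either.

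**Figure D1:**
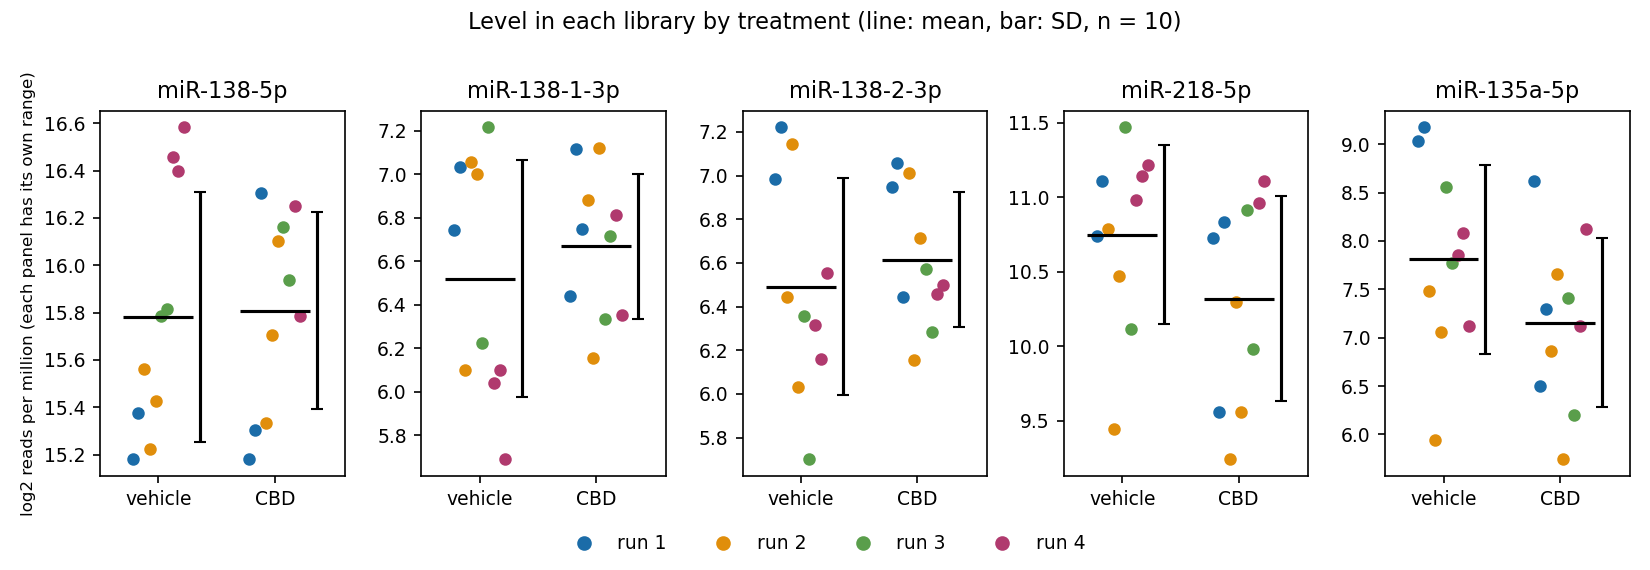
Log2 RPM of each miRNA in the 10 vehicle and 10 CBD libraries, 1 point per library, coloured by run, with the group mean as a line and the SD as a bar. The groups overlap in every panel, and the lowest miR-135a-5p level, 5.74, is in a CBD library and the highest, 9.18, in a vehicle library.

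miR-138-5p, the arm known from dendritic spines, had nearly the same mean in both groups, 15.81 ± 0.42 with CBD and 15.78 ± 0.53 with vehicle (SD, 10 libraries each). Its lowest, median and highest log2 levels were 15.18, 15.86 and 16.31 with CBD and 15.18, 15.67 and 16.58 with vehicle. The 3 highest libraries were vehicle libraries of run 4, and the lowest library of each group was from run 1. The difference, CBD minus vehicle, was 0.03 (SE 0.21, 95% interval -0.40 to 0.46, limma p = 0.900, adjusted p = 0.965), and 6 of the 10 libraries from CBD mice exceeded the mean of the vehicle group. Adding run to the model gave 0.11 (95% interval -0.22 to 0.44, limma adjusted p = 0.801). Within runs 1 to 4 it was 0.32, 0.31, 0.25 and -0.46, so run 4 had the opposite sign to the others. The test of whether the treatment difference varies between runs gave p = 0.246 and an adjusted p of 0.863 (limma interaction term).

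The discarded arms of miR-138 overlapped in the same way. miR-138-1-3p had a lowest, median and highest log2 level of 6.16, 6.73 and 7.12 with CBD and 5.69, 6.48 and 7.22 with vehicle. The vehicle range contains the CBD range. Its difference was 0.15 (SE 0.21, 95% interval -0.29 to 0.59, limma adjusted p = 0.902), or 0.09 with the run term. miR-138-2-3p had 6.16, 6.54 and 7.06 with CBD and 5.70, 6.40 and 7.22 with vehicle. Here too the vehicle range contains the CBD range. The difference of miR-138-2-3p was 0.12 (SE 0.20, 95% interval -0.29 to 0.54, limma adjusted p = 0.913), or 0.07 with the run term. Both arms have 1 sign in some runs and the other sign in others, from -0.20 to 0.64 for miR-138-1-3p and from -0.29 to 0.40 for miR-138-2-3p. For miR-138-1-3p the 0.64 was in run 4, and without that run its difference was -0.079.

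miR-218-5p, encoded within the Slit genes, had log2 levels of 9.24, 10.51 and 11.11 with CBD and 9.45, 10.88 and 11.47 with vehicle as lowest, median and highest. The lowest library was CBD replicate 4 and the highest vehicle replicate 6, and the groups overlapped over most of their range. In RPM the group means were 1403 ± 597 in the CBD group and 1841 ± 639 in the vehicle group (SD, 10 libraries each). The log2 difference was -0.43 (SE 0.27, 95% interval -0.998 to 0.14, limma p = 0.130, adjusted p = 0.619), and 6 of the 10 libraries from CBD mice fell short of the mean of the vehicle group. Adding run to the model gave -0.39 (95% interval -0.86 to 0.08, p = 0.0976, limma adjusted p = 0.394). Its difference within runs 1 to 4 was -0.55, -0.54, -0.35 and -0.08, the same sign in 4 of 4. Of all 281 miRNAs 14.2% were lower with CBD in all 4 runs and 7.47% higher. Permuting treatment within runs (exact test) gave p = 0.125 and an adjusted p of 0.423.

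miR-135a-5p, the regulator of serotonin genes, had the widest gap between group means among the 5, and it was also the most variable of them. Its lowest, median and highest log2 levels were 5.74, 7.21 and 8.62 with CBD and 5.94, 7.82 and 9.18 with vehicle. The 2 highest libraries were the vehicle libraries of run 1, and the lowest, CBD replicate 6, rests on 12 reads. In RPM the means were 167 ± 103 in the CBD group and 272 ± 171 in the vehicle group (SD, 10 libraries each). The log2 difference was -0.66 (SE 0.38, 95% interval -1.45 to 0.13, limma p = 0.0990, adjusted p = 0.619), and 8 of the 10 libraries from CBD mice fell short of the mean of the vehicle group. Adding run to the model gave -0.72 (95% interval -1.40 to -0.03) at an unadjusted p of 0.0414 and a limma adjusted p of 0.306. In that fit 14.9% of all miRNAs had an unadjusted p under 0.05, 10.7% being lower and 4.27% higher with CBD, and 0% an adjusted p under 0.05, so an unadjusted p of this size was common.

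The gap of miR-135a-5p was wide in 2 of the 4 runs and narrow in the others. In run 1 the CBD libraries had log2 levels of 8.62, 6.50 and 7.30 and the vehicle libraries 9.04 and 9.18, a difference of -1.63. In run 3 they were 7.41 and 6.20 against 8.56 and 7.77, a difference of -1.37. In runs 2 and 4 the differences were -0.07 and -0.07. Each of these rests on few libraries per group. The interaction of treatment and run had p = 0.192 and an adjusted p of 0.856 (limma), against 0% of miRNAs with an adjusted and 4.98% with an unadjusted p under 0.05. The exact permutation test within runs gave p = 0.0728 for miR-135a-5p and an adjusted p of 0.401, where 14.6% of all miRNAs had an unadjusted p under 0.05 and 0% an adjusted one. In the fit with the run term and each library left out in turn, its difference was -0.88 to -0.57 and its unadjusted p 0.0121 to 0.0955, under 0.05 in 8 of 20 fits.

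**Figure D2:**
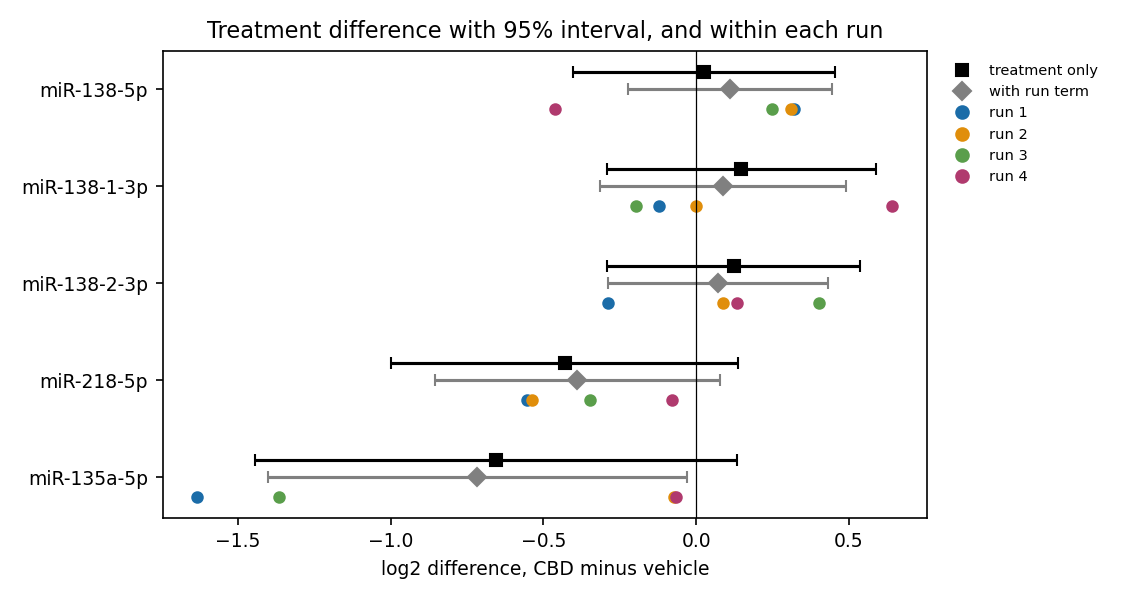
Log2 difference of CBD minus vehicle for the 5 miRNAs, with 95% intervals from the fit on treatment alone (black) and with the run term (grey), and the difference within each run as coloured points. Every interval of the fit on treatment alone includes 0, and with the run term that of miR-135a-5p ends at -0.03.

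Differences between runs passed the test for miR-138-5p and miR-218-5p, while the treatment difference passed for none of the 5. By limma's F test with treatment also in the model, 48% of all 281 miRNAs passed an adjusted p of 0.05 for run, and of the 5 described here these 2 did. A share of 2 in 5 is near that background. The other 3 had adjusted p of 0.0667 for miR-135a-5p, 0.105 for miR-138-2-3p and 0.203 for miR-138-1-3p.

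miR-138-5p was highest in run 4. Its log2 levels there were 16.25 and 15.79 in the CBD libraries and 16.46, 16.40 and 16.58 in the vehicle libraries. In run 1 they were 15.18, 15.30 and 16.31 with CBD and 15.18 and 15.38 with vehicle, so only CBD replicate 3 of run 1 reached into the range of run 4. The run means were 15.47, 15.56, 15.92 and 16.30 for runs 1 to 4 (limma F test, adjusted p = 0.0181). Run 4 exceeded run 2 by 0.75 (95% interval 0.30 to 1.20, adjusted p = 0.0131), where 31% of all miRNAs passed, and run 1 by 0.85 (0.38 to 1.32, adjusted p = 0.0544), where 0.356% passed. After quantile normalization the difference between runs of miR-138-5p had an adjusted p of 0.0507 by the F test, where 142 of all 281 miRNAs passed.

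miR-218-5p was lowest in run 2 and highest in run 4. In run 4 its 5 libraries lay close together, at 10.96 and 11.11 with CBD and 10.98, 11.14 and 11.22 with vehicle. Those of run 2 were at 9.24, 10.29 and 9.56 with CBD and 10.78, 9.45 and 10.47 with vehicle, all below the lowest of run 4. The run means of miR-218-5p were 10.59, 9.96, 10.62 and 11.08 (limma F test, adjusted p = 0.0355), and run 4 exceeded run 2 by 1.08 (95% interval 0.45 to 1.71, adjusted p = 0.0122). The call between runs was lost when any 1 of 7 libraries was left out. In these fits 114 to 140 of all 281 miRNAs passed, against 135 with all 20 libraries. Over every fit with a library left out the count was 98 to 159. The adjusted p was 0.0838 without vehicle replicate 4, 0.0795 without CBD replicate 4, 0.0685 without CBD replicate 6, 0.0631 without CBD replicate 10, 0.0594 without CBD replicate 9, 0.0559 without vehicle replicate 10 and 0.0518 without vehicle replicate 9.

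**Figure D3:**
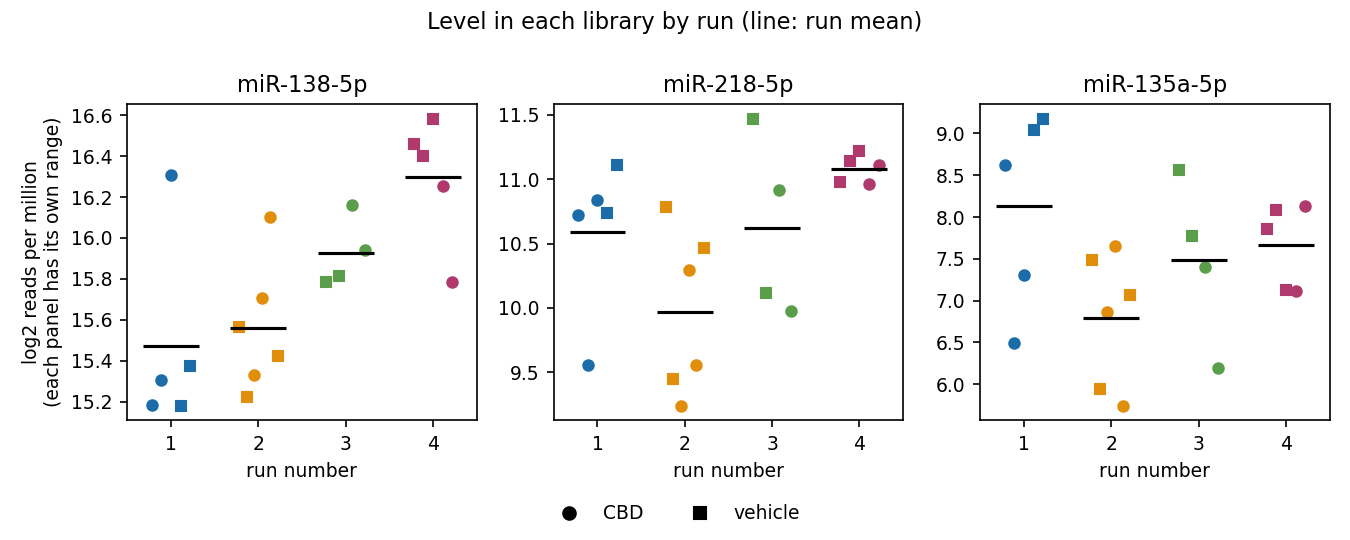
Log2 RPM of miR-138-5p, miR-218-5p and miR-135a-5p in each library by run number, with circles for CBD, squares for vehicle and the run mean as a line. The run means go from 15.47 to 16.30 for miR-138-5p, from 9.96 to 11.08 for miR-218-5p and from 6.79 to 8.13 for miR-135a-5p.

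miR-135a-5p followed another order, with run means of 8.13, 6.79, 7.49 and 7.66. Run 2 was lowest, as for miR-218-5p, but run 1 and not run 4 was highest. The contrast of run 2 with run 1 was -1.41 (95% interval -2.33 to -0.48, limma adjusted p = 0.0231), where 33.1% of all miRNAs passed. Over all 4 runs miR-135a-5p passed limma's F test after median centring (adjusted p = 0.0384), where 148 of all 281 miRNAs passed. It passed with the listed library size (adjusted p = 0.0467), where 136 of all passed. Leaving out CBD replicate 2 (adjusted p = 0.0210) or CBD replicate 5 (adjusted p = 0.0257) also let it pass, with 139 and 142 of all passing. miR-138-2-3p passed without CBD replicate 3 (adjusted p = 0.0493), where 159 of all 281 miRNAs passed.

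Markers of other cell types had these levels by run and by treatment. The summed level of the 2 measured of 5 immune and microglial markers, miR-150-5p and miR-146a-5p, was 9598 to 24588 RPM in run 2, and 2447 to 7632, 3140 to 6197 and 2955 to 8261 in runs 1, 3 and 4. Run 2 is also where miR-218-5p and miR-135a-5p were lowest. The 3 measured of 5 choroid plexus and ependymal markers summed to 20461 to 34089 RPM in run 3, 6426 to 17736 in run 1, 4200 to 21797 in run 2 and 4797 to 21550 in run 4. The 4 of 4 oligodendrocyte markers summed to a median of 3250 RPM in run 1 (2368 to 6345), 1399 in run 2 (1014 to 2797), 2133 in run 3 (899 to 5161) and 1796 in run 4 (1441 to 2457), highest in run 1 and lowest in run 2 as the mean of miR-135a-5p was. The 4 of 4 blood vessel markers had run medians of 4381, 3784, 4940 and 3826 RPM, within 3144 to 8931 in all libraries. For the 5 neuronal markers the run medians were 135955, 138698, 167490 and 155939 RPM, lowest in run 1, where the mean of miR-135a-5p was highest. By treatment, the choroid plexus and ependymal markers had a median of 18365 RPM with CBD (5570 to 23419) and 8133 with vehicle (4200 to 34089), the higher median being that of CBD although the ranges overlapped. The blood vessel markers had a median of 3745 with CBD (3144 to 5698) and 4745 with vehicle (3353 to 8931). The oligodendrocyte markers had 2082 (899 to 3250) and 2298 (1014 to 6345), and the immune markers 5527 (2955 to 19845) and 6774 (2447 to 24588). The neuronal markers had 169819 (103244 to 258930) and 146620 (119794 to 170295). That neuronal sum is set mostly by miR-9-5p, the most abundant of the 5 (group means 16.92 and 16.78 in log2 RPM). Taken singly, the neuronal markers differed in sign. CBD minus vehicle was 0.14 for miR-9-5p and 0.21 for miR-129-5p. It was -0.02 for miR-128-3p, -0.15 for miR-137-3p and -0.54 for miR-124-3p (limma adjusted p = 0.578 for miR-124-3p). No measured marker was at 0 in any library. The part of these cells in the differences above was not tested.

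The balance of the 2 arms of miR-138 can be measured free of the scaling between libraries. The measure is the log2 level of the 5p arm minus that of the 3p arm. The 5p arm exceeded miR-138-1-3p by 9.20 ± 0.79 and miR-138-2-3p by 9.24 ± 0.76 (SD, n = 20). Among 76 pairs of arms of 1 stem in the table these had the third and second largest excess of the 5p arm, and the median pair had 0.66. In reads, both 3p arms together had 37.9 reads per 10000 reads of the 5p arm, with a lowest library of 14.7 and a highest of 71.6.

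This arm excess changed with the run and not detectably with the treatment. Its run means were 8.65, 8.84, 9.30 and 10.10 against miR-138-1-3p and 8.54, 8.97, 9.70 and 9.90 against miR-138-2-3p (limma F test over 76 pairs, adjusted p = 0.0111 and 0.0113). Of all 76 pairs 44.7% passed this test, so the miR-138 pairs do not stand apart by passing. Run 4 exceeded run 1 by 1.45 (95% interval 0.67 to 2.23) and 1.37 (0.61 to 2.13). The miR-138 pairs share their 5p arm and are not independent. Within runs, the difference of CBD minus vehicle was 0.02 (exact permutation test, p = 0.931, adjusted p = 0.959) and 0.04 (p = 0.887, adjusted p = 0.959). Of the 76 pairs 0% passed after adjustment and 7.89% had an unadjusted p under 0.05. In run 4 the CBD libraries had the smaller excess, by -1.10 and -0.60, and in runs 1 and 2 the larger. In run 3 the pairs had opposite signs, 0.45 against miR-138-1-3p and -0.15 against miR-138-2-3p.

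The 2 copies of miR-138 gave similar numbers of 3p reads. Summed over libraries there were 1360 reads of miR-138-1-3p and 1443 of miR-138-2-3p. The share of miR-138-1-3p among both was 51.0% ± 5.48 in the CBD group and 50.3% ± 11.5 in the vehicle group (SD, 10 libraries each). The exact 95% binomial interval of this share, which covers counting error only, included an equal split in 17 of 20 libraries. It lay above 50% in vehicle replicate 7, at 74.4% (63.6 to 83.4) of 82 reads, and below it in vehicle replicate 10, at 35.3% (27.7 to 43.5) of 150 reads, and in CBD replicate 1, at 41.3% (35.7 to 47.1) of 305 reads. The log2 ratio of the copies differed by 0.025 between CBD and vehicle (permutation test, p = 0.923).

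**Figure D4:**
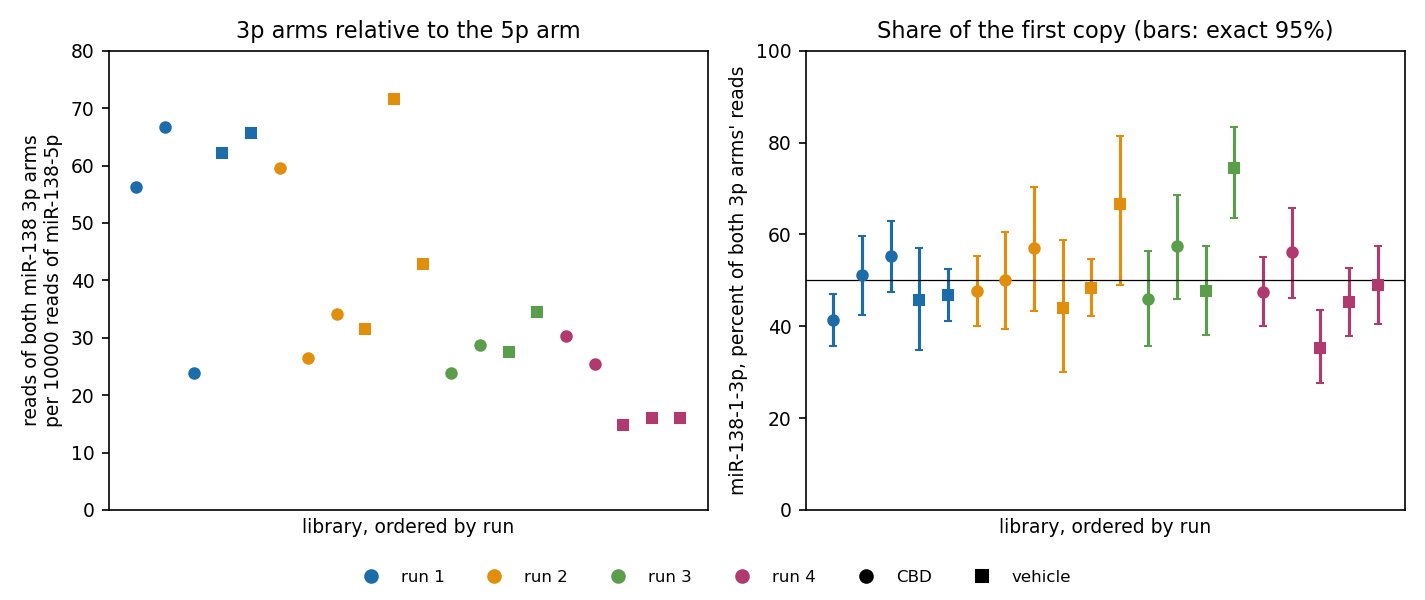
Left, reads of both miR-138 3p arms per 10000 reads of miR-138-5p in each library, ordered and coloured by run, with circles for CBD and squares for vehicle. Right, the share of miR-138-1-3p among the reads of both 3p arms with exact 95% binomial intervals, of which 17 of 20 include 50%.

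Among the 10 pairs that can be formed from the 5 miRNAs, miR-218-5p and miR-135a-5p went together between libraries. Over 20 libraries Pearson r was 0.71 (permutation test, p = 0.000300, adjusted p = 0.00300 over 10 pairs) and Spearman rho 0.63 (p = 0.00383, adjusted p = 0.0191). Without the 2 libraries farthest from the median of miR-135a-5p, r was 0.65. With each run's mean removed r was 0.71 (permutation within runs, p = 0.00303, adjusted p = 0.0303), and it was 0.70 among the CBD and 0.66 among the vehicle libraries. The runs hold 4 to 6 libraries, and run 2, the run with 6, gave r = 0.72. The libraries that were low in both, such as CBD replicates 2, 6 and 8 and vehicle replicate 4, came from 3 of the runs. All values of a library share its scaling, and with median centring or the listed library size the within-run r was 0.66 and 0.80. Over all pairs of the 281 miRNAs the 5th and 95th percentiles of r with run means removed were -0.55 and 0.62.

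miR-138-1-3p ran opposite to miR-218-5p, with r = -0.64 over 20 libraries (permutation test, p = 0.00267, adjusted p = 0.0133) and rho = -0.65 (p = 0.00249, adjusted p = 0.0191). With run means removed r was -0.60 (permutation within runs, p = 0.0120, adjusted p = 0.0598), and it was -0.77 with median centring and -0.44 with the listed library size, so the size of this relation depends on the scaling. Without the 2 libraries farthest from the median of miR-138-1-3p, r was -0.60. The other 8 pairs did not pass after adjustment. The 5p arm of miR-138 had r = -0.49 with miR-138-1-3p and -0.51 with miR-138-2-3p (permutation test, adjusted p = 0.0702 for both), or -0.19 and -0.32 with run means removed. These within-run values were -0.07 and -0.09 with median centring, and -0.36 and -0.05 with the listed library size. The 3p arms of the 2 copies had r = 0.25 over 20 libraries.

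**Figure D5:**
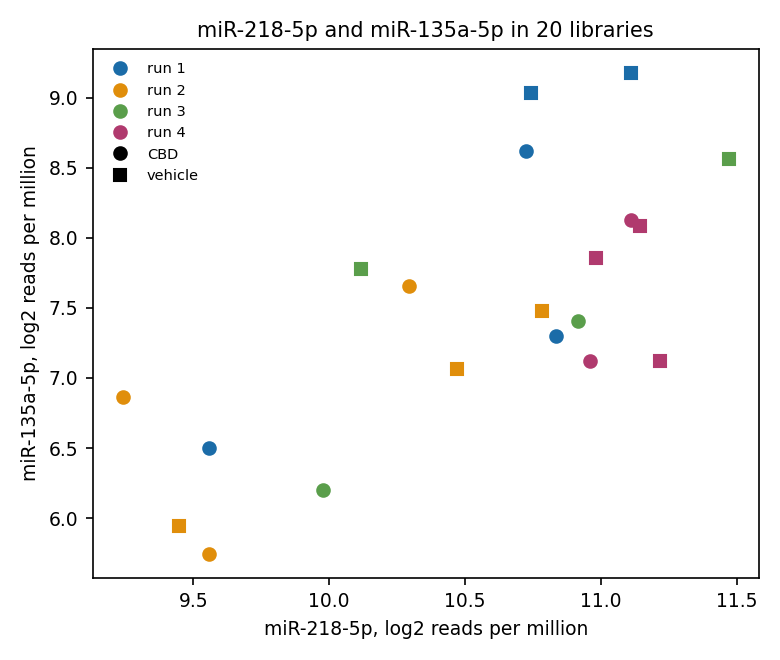
Log2 RPM of miR-218-5p and miR-135a-5p in each of 20 libraries, with circles for CBD, squares for vehicle and colours for runs. The points rise together, with r = 0.71 over all libraries, and the CBD and vehicle libraries lie along the same band.

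The miRNAs most like each 5p arm were found by Pearson r over 20 libraries with run means removed. For miR-218-5p they were miR-9-3p (r = 0.87), let-7g-5p (0.83) and miR-137-3p (0.81), of which miR-9 and miR-137 are neural miRNAs. For miR-135a-5p they were miR-34a-5p (0.80), miR-376c-3p (0.80) and miR-384-3p (0.79), and miR-218-5p came at place 8 of the other 280 miRNAs. For miR-138-5p they were miR-6481 (0.70), miR-494-3p (0.69) and miR-872-5p (0.67). These values are descriptions, chosen as the highest of many.

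Other miRNAs reported to act on spines, synaptic receptors or synaptic strength had differences of both signs, in shares like those of all miRNAs. Of 22 on this list 19 were measured, and 7 were higher and 12 lower with CBD, with a median difference of -0.08. Over all 281 miRNAs 108 were higher and 173 lower, also with a median of -0.08. By limma 0 of the 19 had an adjusted p under 0.05 and 0 an unadjusted p under 0.05, and with the run term 1 was higher and 2 were lower at an unadjusted p under 0.05, where 4.27% of all 281 were higher and 10.7% lower. The smallest p were those of miR-124-3p, which sustains neuronal identity, at -0.54 (95% interval -1.09 to 0.01), miR-34a-5p at -0.40 (-0.87 to 0.08), miR-132-3p, which neuronal activity induces, at 0.37 (-0.15 to 0.88), and miR-26a-5p at -0.26 (-0.62 to 0.11). Their limma adjusted p were 0.578, 0.619, 0.683 and 0.683. Between runs 11 of the 19 passed, against 48% of all miRNAs.

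In the authors' deposited table miR-135a-5p has a log2 fold change of -0.76 (p = 0.0126, adjusted p = 0.137) and miR-218-5p one of -0.41 (p = 0.0417, adjusted p = 0.210). By p these rank 25 and 52 of 281, so p-values of this size were common there. The authors' deposited table gives miR-138-5p, miR-138-1-3p and miR-138-2-3p values of 0.10, 0.09 and 0.06, with adjusted p of 0.747 and above. Read as CBD minus vehicle, which the column names do not state, the directions are those of the fit to the 20 columns. All 5 have an adjusted p above 0.05 in both, and in the fit to the 20 columns so had all 281 miRNAs. How many of all 281 pass in the authors' deposited table was not counted here. The mean level of miR-135a-5p in the authors' deposited table is 7.67, while the mean of the 20 columns was 7.48, so those results rest on other values than the columns as deposited.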

How the data were processed

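Small RNA libraries were made from Trizol-extracted RNA with an Illumina TruSeq small RNA kit and purified on a Pippin Prep, per the labels' protocols. The submitters' processing notes name mm10, edgeR and limma, without roles. The aligner, counting tool and miRNA annotation used were not given in these sources. Log2 values for 281 miRNAs were deposited by the authors in 20 columns. Adding 0.5 to a read count, dividing by an effective library size plus 1 and scaling to 1000000 before taking log2 gives each value, and the read count so recovered was whole for 100% of values in every library (largest gap to a whole number 9.2e-09 reads). The ratio of that effective size to the library size the authors list was 0.693 to 1.17. The labels name no molecular identifiers, and PCR copies may thus be counted more than once.

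The authors' deposited comparison table gives log2 fold changes, p-values, t and log-odds scores and a ratio column; the t and log-odds scores and the ratio were not used here.

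CBD was compared with vehicle by limma 3.58.1 (R 4.3.3) on the deposited log2 values of all 281 miRNAs, with treatment as the only term, a mean-variance trend, two-sided p-values and Benjamini-Hochberg adjustment over all 281, with a threshold of 0.05. No low-value filter was applied, and a filter at a mean log2 level of 5 removed 0 miRNAs. Differences between runs were tested by limma's F test with treatment and run in the model. The exact permutation test within runs used all 12000 relabellings. Arm differences paired every 5p with every 3p row of the same stem, 76 pairs in all, and correlations used 100000 resamples. Tests were run on simulated data first. Replicate libraries differed by more than counting error, the lowest chi-square divided by its degrees of freedom being 19.2. All 5 members are named, together with the 3 miRNAs most correlated with each 5p arm and the 4 of the synaptic list with the smallest p. The members and lists were chosen with earlier results of these data known. Alternatives combining the run term with another scaling, with array weights or with a library left out, and the test of arm differences between runs, were added after seeing the data. Replicates are numbered within a group by sample order and pair no mice.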

Additional observations from a re-analysis of the deposited data

Results flagged for a closer look

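Each of 36 sets of libraries, the levels of the 5 miRNAs by group and by run and the miR-138 arm differences and copy ratio by group, was examined by Dixon's 95% critical value for 1 library far from the others, and 2 were found. By its construction such a limit flags about 1 in 20 sets by chance, and the sets share libraries. In run 1, miR-138-5p stood at 16.31 in CBD replicate 3, while the nearest of the other 4 libraries had 15.38. Also in run 1, miR-218-5p stood at 9.56 in CBD replicate 2, while the nearest of the others had 10.73. No explanation was tested for either.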

How the results depend on the processing

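The 16 other settings and the 20 fits with 1 library left out gave 0 calls among the 5 miRNAs for treatment. The count over all 281 miRNAs, 0 by limma, was 24 with array weights and 0 in each other setting. The difference of miR-135a-5p stayed negative, at -0.83 (without run 4) to -0.38 (array weights) over the other settings and -0.86 to -0.50 with each library left out, and so did that of miR-218-5p, at -0.51 to -0.30 and -0.58 to -0.31. The small differences of the miR-138 rows changed sign. miR-138-5p went to -0.049 with the listed library size, -0.32 with array weights and -0.030 without run 3, and to between -0.040 and 0.12 with each library left out. miR-138-1-3p went to -0.079 without run 4, and miR-138-2-3p to -0.0068 with the run term and the listed library size. With array weights the difference of miR-138-1-3p grew to 0.43 (limma p = 0.0236, adjusted p = 0.152). In that setting 57 of all 281 miRNAs had an unadjusted p under 0.05. The arm differences were -0.12 and -0.097 when not taken within runs.

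For differences between runs, F of miR-135a-5p rose past the threshold with median centring (4.22) and the listed library size (3.94), and F of miR-138-5p fell short with quantile normalization (3.76). In these settings 148, 136 and 142 of all 281 miRNAs passed, against 135 with the values as deposited. With each library left out F was 2.39 to 5.53 for miR-135a-5p, 1.74 to 3.73 for miR-138-2-3p and 3.09 to 5.90 for miR-218-5p. Over all 281 miRNAs 98 to 159 passed in these fits. The cause of these shifts was not tested. No paired analysis was possible because the labels give CBD and vehicle mice no shared replicate numbers. Low read numbers, down to 12, limit miR-135a-5p and the 3p arms most.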
